A study of Rattus norvegicus with 48 samples.

Results

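Primary rat cortical cultures that had received 4-octyl itaconate (4OI, 250 µM) and nothing else were compared with untreated cultures (Control). The comparison rests on 6 of the 48 RNA-seq libraries of the series, 3 of 4OI and 3 of Control. It covers all 30211 genes of the expression table, of which 15609 were expressed well enough to be tested. Expression was judged over the 21 libraries of the fit, which include groups described below. A gene tested may therefore have no reads in these 6 libraries. 4OI was present for 48 h, and neither group received the HIV-1 protein Tat or cocaine, the 2 agents given to most other groups. The cultures came from cortices of 18-day Sprague-Dawley rat fetuses and had been kept for 3 weeks. The study dissolved 4OI in DMSO, and whether Control cultures received DMSO as well is not stated in the sources used here. The labels call the cells neurons, whereas the study describes mixed cultures, and the libraries of both groups carried transcripts of several cell types. In Control, the neuronal gene Map2 lay at 639, 500.1 and 592 CPM, the astrocyte gene Gfap at 4447, 4044 and 4756 CPM and the microglial gene Aif1 at 42.1, 122 and 68.4 CPM. In bulk RNA of such cultures, fewer cells of a type and less RNA per cell cannot be told apart. The labels number the replicates but do not say whether they were separate cultures or litters. The p-values therefore measure a spread between libraries that may be technical. That spread was estimated jointly over the 21 libraries of 7 groups in the fit, most of them outside this comparison.

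Itaconate is made from cis-aconitate, an intermediate of the citric acid cycle, by the enzyme Acod1, which activated macrophages and microglia induce. It is known to alkylate cysteines of proteins, among them Keap1, the adaptor that hands the transcription factor Nrf2 (gene Nfe2l2) to a ubiquitin ligase, and modified Keap1 lets Nrf2 accumulate. Nrf2 with a small Maf partner binds antioxidant response elements and drives genes of glutathione synthesis, quinone reduction, NADPH supply and heme and iron handling. The octyl ester 4OI is used because it enters cells more readily than itaconate itself.

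Expression is given as CPM, reads per M reads after the authors' scaling between libraries, and a log2 fold change is the difference of the group means of log2(CPM + 0.5) with its standard error, which understates the change of low genes. The 6 libraries held 19.9 to 27.6 M reads on genes (median 24.1 M), and 0.5 CPM stood for 10.2 to 13.6 reads. Of the 15609 genes tested with limma, 221 (1.42%) passed a Benjamini-Hochberg false discovery rate of 0.05. Among these, 199 genes rose (1.27% of the genes tested) and 22 fell (0.141%). The rises had a median log2 fold change of 0.68 and ranged from 0.28 to 3.85, with 56 genes changed at least 2-fold and 12 at least 4-fold. The falls had a median of -0.96, with 10 genes changed at least 2-fold and 2 at least 4-fold. In all 221 genes the 3 libraries of 4OI lay on 1 side of the 3 of Control. Among all genes tested, 11% had 4OI libraries entirely above and 6.05% entirely below the Control libraries, called or not. The median over all genes tested was 0.01.

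**Figure D1:**
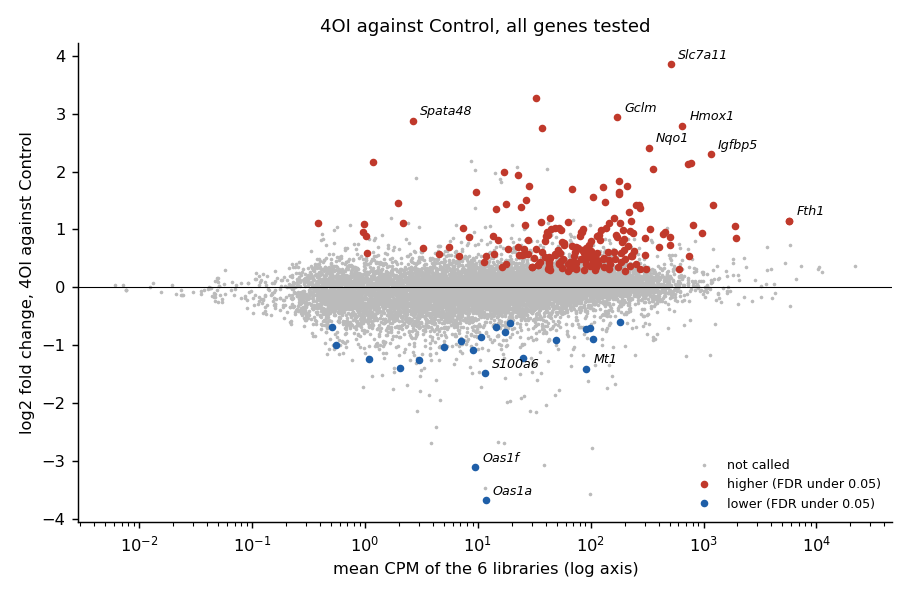
Log2 fold change of 4OI against Control (vertical axis) against the mean CPM of the 6 libraries (horizontal log axis), 1 point for each gene tested that has a read in any of them, red for genes raised and blue for genes lowered at a false discovery rate under 0.05. The 199 raised genes reach 3.85 (Slc7a11) and the 22 lowered genes -3.68 (Oas1a).

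The number of genes called depended on single libraries (named below by group and replicate number, as Control 1 or 4OI 3). Leaving out 4OI replicate 3 gave 95 genes, leaving out 4OI replicate 1 gave 105 and leaving out Control replicate 2 gave 128, against 162 to 211 for each of the other 3 libraries. Of the 199 raised genes 84 passed in each of these 6 fits, and of the 22 lowered genes 1 did, the angiopoietin gene Angpt4. With the replicate number of the labels as a block in the 6 libraries alone, which compares same-numbered libraries (the paired fit below), 200 genes passed, 148 higher and 52 lower. They included 96 of the 199 raised and 8 of the 22 lowered genes, and 0 of the 221 changed sign. With a block common to all 21 libraries of the fit (the shared block below), 439 genes passed (335 higher, 104 lower), among them all 221. The labels do not state that the numbers pair libraries, so both blocks rest on an assumption. An unadjusted p under 0.05 was reached by 10.7% of all genes tested, beside which such counts of list members are to be read. Counts of list members that passed in a block fit or with a library left out are likewise to be read beside the total of that fit.

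The largest rise was in a gene of glutathione supply. Slc7a11, the transport subunit of the cystine/glutamate antiporter that brings in cystine for glutathione, measured 41.7, 66.3 and 80.1 CPM in Control and 1029, 464 and 1419 CPM in 4OI. The means were 62.7 ± 19.4 and 971 ± 480.1 CPM (SD, n = 3), a ratio of 15.5 and a log2 fold change of 3.85 ± 0.38 (adjusted p = 1.37e-05, limma). Even the lowest 4OI library, replicate 2, lay far above the highest Control library, while the 4OI libraries spread widely among themselves. Gclm, the modifier subunit of glutamate-cysteine ligase, which catalyses the rate-limiting step of glutathione synthesis, went from 34.8, 39.2 and 38.1 CPM to 326, 175 and 424 CPM, a log2 fold change of 2.94 ± 0.23 (adjusted p = 1.6e-06). Replicate 2 was again the lowest of the 4OI libraries, and the Control libraries were tightly grouped.

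The other called genes of glutathione supply rose less. Slc3a2, the heavy chain that carries Slc7a11 to the membrane, had means of 516 and 1098 CPM in Control and 4OI (log2 fold change 1.08 ± 0.19, adjusted p = 0.00701), a call it lost when 4OI 3 was left out (adjusted p = 0.0555). Gss, which joins glycine to complete glutathione, had a log2 fold change of 1.03 ± 0.13 (adjusted p = 0.000286). Gsr, the reductase that regenerates glutathione with NADPH, had 0.88 ± 0.09 (adjusted p = 2.02e-05). Gclc, the catalytic partner of Gclm, stood at 163, 172 and 221 CPM in Control and at 262, 270.4 and 270.0 CPM in 4OI. Its log2 fold change of 0.54 ± 0.11 passed (adjusted p = 0.0177) but did not when any library other than Control 3 was left out (adjusted p = 0.0511 to 0.0964). The partner subunits thus differed in the size of their rise, with a ratio of 8.26 for Gclm and of 1.44 for Gclc, a difference between genes that was not tested. Of the 18 genes of glutathione synthesis and cystine import tested, 6 rose and 0 fell, and their median log2 fold change was 0.16. Gclc had an adjusted p of 0.0778 in the paired fit. In the 39 libraries of the series without 4OI it lay between 85.3 and 221 CPM (median 111), with Control 3 the highest.

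Among the glutathione S-transferases, which conjugate glutathione to electrophiles, 3 of 20 rose and 0 fell (median 0.16). Gstp1 measured 246, 330.0 and 277 CPM in Control and 1082, 1436 and 1285 CPM in 4OI, a ratio of 4.46 and a log2 fold change of 2.16 ± 0.37 (adjusted p = 0.0046). Gsta1 had means of 273 ± 53.4 and 1183 ± 122 CPM (SD, n = 3) and a log2 fold change of 2.12 ± 0.22 (adjusted p = 2.66e-05). Gsta1 is counted with caution, because alpha class transferases resemble each other closely and the reference table lists its symbol as a synonym of Gsta2. Gstt3 rose from a mean of 26.7 to 60.7 CPM (log2 fold change 1.20 ± 0.21, adjusted p = 0.00575). Summed over the list, Control libraries lay between 1799.6 and 1928 CPM and 4OI libraries between 3729 and 4418 CPM.

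Nqo1, the quinone reductase that is the usual readout of Nrf2 activity, rose with little spread between libraries. Its Control libraries measured 87.1, 106 and 116 CPM and its 4OI libraries 568, 476 and 606 CPM. The means of 103 ± 14.9 and 550.3 ± 66.8 CPM (SD, n = 3) gave a ratio of 5.33 and a log2 fold change of 2.41 ± 0.16 (adjusted p = 1.56e-07). Cbr3, a carbonyl reductase, rose from 6.65 to 27.7 CPM (log2 fold change 1.99 ± 0.22, adjusted p = 6.95e-05). The other 13 genes of quinone and carbonyl reduction did not pass, and the list had a median of 0.11.

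NADPH supply was the list with the highest median, 0.74, and 5 of its 8 genes rose. Taldo1, the transaldolase of the pentose phosphate pathway, measured 115, 160.2 and 144 CPM in Control and 606, 600.4 and 510.5 CPM in 4OI, a ratio of 4.09 (log2 fold change 2.04 ± 0.13, adjusted p = 1.5e-07). The transketolase Tkt of the same pathway had a log2 fold change of 0.93 ± 0.13 (adjusted p = 0.000483), and the cytosolic malic enzyme Me1 had 1.36 ± 0.20 (adjusted p = 0.00128). Idh1, the cytosolic isocitrate dehydrogenase, rose by a log2 fold change of 0.55 ± 0.13 (adjusted p = 0.0427) and lost the call when any library other than 4OI 2 was left out (adjusted p = 0.064 to 0.234). The list summed to between 1011 and 1095 CPM in Control and to between 2233 and 2419 CPM in 4OI.

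Heme oxygenase 1 (Hmox1), which opens the heme ring and releases iron, measured 135, 201 and 145 CPM in Control and 793, 1543 and 1078 CPM in 4OI. The means were 160.4 ± 35.4 and 1138 ± 379 CPM (SD, n = 3), with a log2 fold change of 2.79 ± 0.29 (adjusted p = 2.34e-05). In Hmox1, unlike Slc7a11 and Gclm, replicate 2 was the highest 4OI library, and it was the highest Control library as well. The ferritin heavy chain Fth1, which stores iron, went from 3139, 3967 and 3504 CPM to 6573, 9732 and 7510.1 CPM (log2 fold change 1.15 ± 0.20, adjusted p = 0.0053). The gene Best1 carried nearly the same value as Fth1 in every library (3145 and 3139 CPM in Control replicate 1, 9744 and 9732 CPM in 4OI replicate 2), so the 2 genes appear to share reads and the call for Fth1 cannot be separated from Best1. The ferritin light chain was listed under 2 symbols. Ftl1 was close to the detection limit, with means of 0.445 and 1.5 CPM (log2 fold change 1.09 ± 0.19, adjusted p = 0.0066). LOC100360087, which the reference table gives as a synonym of Ftl1, measured 547, 746 and 672 CPM in Control and 1521, 2042 and 1691 CPM in 4OI (log2 fold change 1.42 ± 0.23, adjusted p = 0.00241), and how reads were divided between the copies is not known.

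The remaining called genes of heme and iron were Blvrb, Slc48a1 and Fech. The biliverdin reductase Blvrb had a log2 fold change of 1.01 ± 0.10 (adjusted p = 2.34e-05). Slc48a1, which moves heme out of lysosomes, had 0.65 ± 0.13 (adjusted p = 0.0146) and lost the call when any library other than Control 3 and 4OI 1 was left out (adjusted p = 0.0542 to 0.0689). The ferrochelatase Fech, which inserts iron to complete heme, had 0.41 ± 0.08 (adjusted p = 0.00991). It lost the call when Control 1, Control 2 or 4OI 3 was left out (adjusted p = 0.0529 to 0.074). In all, 6 of the 17 genes of the list rose, 0 fell and the median was 0.31. Ftl1 (adjusted p = 0.0846) and Fech (adjusted p = 0.076) did not pass in the paired fit.

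Of the 18 genes of thioredoxin and peroxiredoxins, 4 rose and 0 fell (median 0.22). Cat, the catalase that breaks down hydrogen peroxide, had means of 127 ± 8.38 and 314 ± 33.6 CPM (SD, n = 3) and a log2 fold change of 1.30 ± 0.10 (adjusted p = 1.85e-06). The thioredoxin reductase Txnrd1 had 1.20 ± 0.16 (adjusted p = 0.000483), its substrate Txn1 0.71 ± 0.12 (adjusted p = 0.00599) and the superoxide dismutase Sod1 0.56 ± 0.09 (adjusted p = 0.00383). Among 12 genes of conjugation and efflux, Abcc4, a pump for conjugates, was the single call (log2 fold change 0.90 ± 0.20, adjusted p = 0.0297), lost when any library other than Control 3 was left out (adjusted p = 0.0692 to 0.144). With the shared block 2 genes of that list passed, and in the paired fit Abcc4 had an adjusted p of 0.0658.

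**Figure D2:**
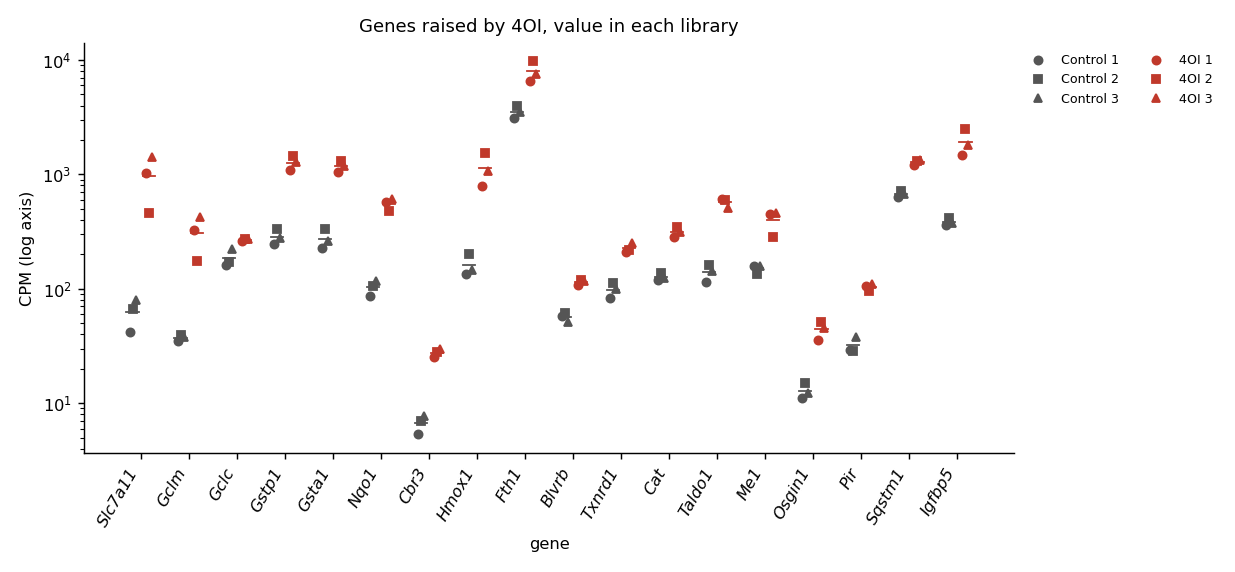
CPM in each of the 6 libraries (log axis) for genes raised by 4OI, with Control in grey, 4OI in red, a symbol for each replicate number and a bar at each group mean. The 3 libraries of 4OI lie above the 3 of Control in each gene, with a wide spread in Slc7a11 (464 to 1419 CPM in 4OI) and a narrow one in Nqo1 (476 to 606 CPM).

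The transcript of Nrf2 itself was not detectably changed. Nfe2l2, which encodes it, measured 111, 133 and 144 CPM in Control and 142, 158 and 139 CPM in 4OI, which overlap. Its log2 fold change of 0.19 ± 0.12 did not pass (adjusted p = 0.702), nor did that of Bach1, the repressor that competes for the same elements (0.35 ± 0.14, adjusted p = 0.322). Keap1 went from 78.7, 76.8 and 66.3 CPM to 109, 106 and 110.4 CPM, which do not overlap, and rose by a log2 fold change of 0.55 ± 0.10 (adjusted p = 0.00746). The other called genes of this list were Osgin1, Pir, Sqstm1 and Mafg. Osgin1 had a log2 fold change of 1.75 ± 0.23 (adjusted p = 0.000399) and Pir of 1.70 ± 0.15 (adjusted p = 5.19e-06). Sqstm1, the autophagy adaptor that binds Keap1, rose by 0.93 ± 0.10 (adjusted p = 2.66e-05), and the small Maf partner Mafg by 0.67 ± 0.09 (adjusted p = 0.000483). Of the 18 regulators and feedback genes tested, 5 rose and 0 fell (median 0.15). In the paired fit 3 of the list passed, without Keap1 (adjusted p = 0.0532) and Mafg (adjusted p = 0.0505).

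Over the 8 lists of the Nrf2 system together, 32 of 126 genes tested rose and 0 fell, with a median log2 fold change of 0.19, beside 1.27% raised and a median of 0.01 over all genes tested. Most members of these lists therefore did not pass, and the rises lay in a subset of each. The lists were written with earlier results of these data known, so these shares are a description and no test. The sulfiredoxin Srxn1 was not analysed here.

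**Figure D3:**
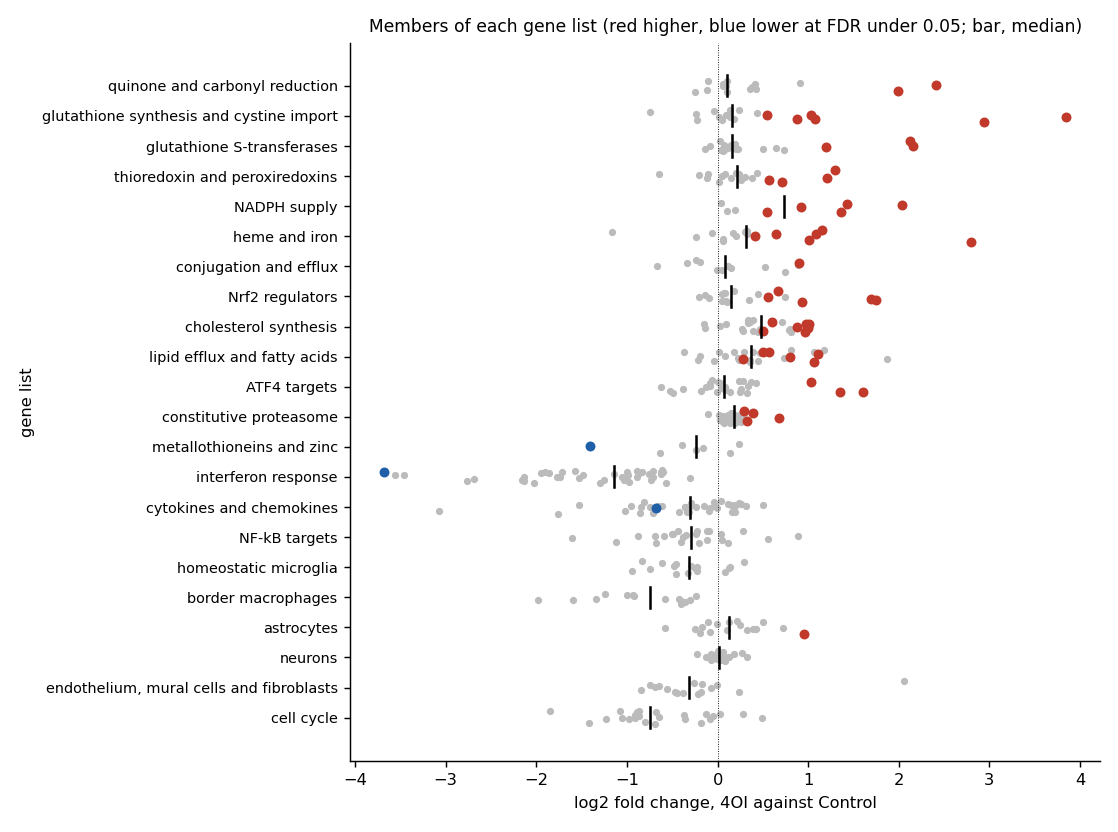
Log2 fold change of 4OI against Control (horizontal axis) for the members of 22 gene lists (rows), 1 point per gene tested, red for genes raised and blue for genes lowered at a false discovery rate under 0.05, with a bar at the list median. NADPH supply has the highest median (0.74) and the interferon response the lowest (-1.14), while the median over all genes tested is 0.01.

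The stretches before the start of called genes were searched for TGACNNNGC, the core of the antioxidant response element, on both strands, since Nrf2 binds that core. The windows, from RefSeq on build GRCr8, run from 250 bases before to 50 after each annotated start, and they were matched by symbol. Of all 27457 windows, 12.2% held the core. A window was at hand for 152 of the 199 raised genes, of which 25 held the core (16.4%), and for 11406 of the 15609 genes tested, of which 1674 held it (14.7%). Since fewer than 80% of the raised genes had a window, the shares are void as a comparison and are given as values alone. Below, the core and 20 bases on each side are shown for the called genes described here whose window holds it before the start, along the strand of the gene from 5′ to 3′, with the core or its reverse complement in capitals. The first 5 sequences belong to genes of the Nrf2 lists, which carry the leading result.
Gclm, chr2:213031943-213031991, plus strand: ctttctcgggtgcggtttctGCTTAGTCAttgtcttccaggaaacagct
Gstp1, chr1:210769738-210769786, minus strand: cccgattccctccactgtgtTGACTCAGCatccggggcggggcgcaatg
Me1, chr8:96540383-96540431, minus strand: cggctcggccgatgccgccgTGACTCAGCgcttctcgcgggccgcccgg
Idh1, chr9:74049529-74049577, minus strand: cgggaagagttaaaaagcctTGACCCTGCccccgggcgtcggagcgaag
Pir, chrX:33851135-33851183, minus strand: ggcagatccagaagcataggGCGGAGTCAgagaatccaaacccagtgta
Cebpb, chr3:176816924-176816972, plus strand: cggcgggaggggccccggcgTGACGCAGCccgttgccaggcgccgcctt
Bag3, chr1:192533403-192533451, plus strand: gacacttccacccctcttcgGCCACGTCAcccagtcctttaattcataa
Adrm1, chr3:187642827-187642875, plus strand: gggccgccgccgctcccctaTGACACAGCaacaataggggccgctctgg
Idi1, chr17:66547600-66547648, minus strand: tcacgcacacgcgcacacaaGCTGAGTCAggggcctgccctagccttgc
Acot2, chr6:109342652-109342700, plus strand: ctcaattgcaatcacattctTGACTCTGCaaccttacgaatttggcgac
Mt1, chr19:10833048-10833096, minus strand: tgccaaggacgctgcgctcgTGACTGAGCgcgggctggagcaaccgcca
Polm, chr14:84930720-84930768, minus strand: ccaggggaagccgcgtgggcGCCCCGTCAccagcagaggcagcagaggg

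In Gclm the core begins 172 bases before the start and in Gstp1 61 bases before it. Pir holds a further copy, on the same strand as the first, 9 bases before its start. The copies in Gstp1, Me1 and Idi1 and the further copy in Pir overlap TGANTCA, the letters that AP-1 factors bind, which 7.33% of all windows hold. Mt1 and Polm, the last 2 sequences, belong to genes that fell, and 2 of the 19 lowered genes with a window held the core. For other strongly raised genes, such as Nqo1 and Slc7a11, no match before the start was listed. Matches after the start were not listed, and not every called gene had a window, so this says nothing of sequence elsewhere. A match is a description of letters, and binding was not measured.

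Of 26 genes of cholesterol synthesis, 7 rose and 0 fell, with a median log2 fold change of 0.48. Cyp51, a sterol demethylase, measured 220.1, 262 and 180.2 CPM in Control and 514, 333 and 491 CPM in 4OI (log2 fold change 1.00 ± 0.17, adjusted p = 0.0046), and it kept the call whichever library was left out. Hmgcs1, which makes HMG-CoA at the head of the pathway, went from 352, 401 and 313 CPM to 699, 559 and 699.6 CPM (log2 fold change 0.88 ± 0.18, adjusted p = 0.0185). In both genes 4OI replicate 2 was the lowest of its group. Msmo1 had a log2 fold change of 0.97 ± 0.20 (adjusted p = 0.0159) and Tm7sf2 of 1.00 ± 0.19 (adjusted p = 0.00897), both enzymes of the later steps. Acat2 (0.96 ± 0.19, adjusted p = 0.0126), Idi1 (0.61 ± 0.14, adjusted p = 0.0399) and Fdft1 (0.50 ± 0.11, adjusted p = 0.0285) completed the calls, Fdft1 being named after its values were seen.

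These calls were sensitive to single libraries. Of the list, 1 gene passed without 4OI replicate 1 or without 4OI replicate 3, 2 without Control replicate 3, 4 without Control replicate 2 and 11 without 4OI replicate 2. With the shared block 13 passed, out of 439 genes in all. In the paired fit 3 passed, and Cyp51 (adjusted p = 0.106), Tm7sf2 (0.0895), Acat2 (0.0778), Hmgcs1 (0.0583) and Idi1 (0.124) did not. Tm7sf2 lost its call when 4OI 1 or 4OI 3 was left out (adjusted p = 0.0673 to 0.0692), Msmo1 when any library other than Control 1 and 4OI 2 was left out (adjusted p = 0.0593 to 0.102) and Hmgcs1 when any library other than Control 2 and 4OI 2 was left out (adjusted p = 0.0626 to 0.110). Acat2 lost it when Control 3, 4OI 1 or 4OI 3 was left out (adjusted p = 0.0623 to 0.0866) and Idi1 when any library other than Control 1 and 4OI 2 was left out (adjusted p = 0.0573 to 0.190). In 18 of the 26 genes the 4OI libraries lay above all Control libraries, against 11% of all genes tested.

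Of 26 genes of lipid efflux and fatty acids, 6 rose, 0 fell and the median was 0.37. With the shared block 11 passed, out of 439 genes in all, and 3 passed when Control replicate 1, 4OI replicate 1 or 4OI replicate 3 was left out. Cpt1a, which commits fatty acids to mitochondrial oxidation, rose from 92.7 to 199 CPM (log2 fold change 1.11 ± 0.12, adjusted p = 3.81e-05). The fatty acid binding protein of radial glia and astrocytes, Fabp7, rose from 1223 ± 45.2 to 2552 ± 145 CPM (SD, n = 3, log2 fold change 1.06 ± 0.18, adjusted p = 0.00431). Both kept the call with each library left out, as did the acyl-CoA thioesterase Acot2 (0.57 ± 0.09, adjusted p = 0.00145). Cpt2, the partner of Cpt1a on the inner membrane, had 0.80 ± 0.16 (adjusted p = 0.0185) and lost the call when any library other than Control 3 and 4OI 2 was left out (adjusted p = 0.0944 to 0.104). The dehydrogenase Acadl (0.50 ± 0.11, adjusted p = 0.0211) lost it when any library other than Control 2 and Control 3 was left out (adjusted p = 0.0588 to 0.0984). In the paired fit 4 of the list passed, without Acot2 (adjusted p = 0.0573) and Cpt2 (adjusted p = 0.0686).

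Acod1, the enzyme that makes itaconate, was close to the detection limit in these cultures, at 0.115, 0.539 and 0.454 CPM in Control and 0.110, 0.0862 and 0 CPM in 4OI. The highest 4OI library lay below the lowest Control library by less than the value of 1 read, and the difference did not pass (log2 fold change -0.59 ± 0.85, adjusted p = 0.941). Of the 27 genes of itaconate and the citric acid cycle, 2 rose and 0 fell (median 0.07). Suclg1, a subunit of succinyl-CoA ligase, had a log2 fold change of 0.41 ± 0.07 (adjusted p = 0.00675) and lost the call when 4OI 1 was left out (adjusted p = 0.0556) and in the paired fit (adjusted p = 0.0659). Slc2a1, the glucose transporter of glia and vessels, was the single call among 22 genes of glycolysis (log2 fold change 0.86 ± 0.16, adjusted p = 0.00848; median 0.05).

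Of 28 targets of ATF4, the factor of the integrated stress response, 3 rose (median 0.07), beside 1.27% of all genes tested. Slc1a4, a transporter of serine and alanine, measured 85.2, 96.6 and 82.8 CPM in Control and 256, 281 and 272 CPM in 4OI, a ratio of 3.06 (log2 fold change 1.61 ± 0.10, adjusted p = 1.2e-07). The stress cytokine Gdf15 (1.35 ± 0.30, adjusted p = 0.0305) lost its call when any library other than Control 2 was left out (adjusted p = 0.0779 to 0.163), and the transcription factor Cebpb (1.03 ± 0.22, adjusted p = 0.0267) lost it when any library other than Control 2 and 4OI 2 was left out (adjusted p = 0.0843 to 0.158) and in the paired fit (adjusted p = 0.0923). Slc7a11 and other members of the Nrf2 lists are also known ATF4 targets, so the 2 sets of genes are not separate in biology. Among 19 chaperones of the endoplasmic reticulum 0 passed with limma, and 0 had an unadjusted p under 0.05 (median -0.05).

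Of 23 heat shock genes, 2 rose and 10 had an unadjusted p under 0.05 in either direction (median 0.12). Fold changes were above 0 in 16 of them and below 0 in 7. The co-chaperone Bag3 had means of 39.9 ± 7.35 and 87.1 ± 8.10 CPM (SD, n = 3) and a log2 fold change of 1.13 ± 0.14 (adjusted p = 0.000157). Its partner Hspb8 had 0.46 ± 0.11 (adjusted p = 0.0389) and lost the call when any library other than Control 3 was left out (adjusted p = 0.103 to 0.169). Of the 34 genes of the constitutive proteasome, which degrades ubiquitinated proteins, 4 rose, 17 had an unadjusted p under 0.05 and 33 had a fold change above 0 (median 0.18). Psmd5, an assembly chaperone of the regulatory particle, had the largest log2 fold change of the 4, 0.68 ± 0.09 (adjusted p = 0.000239), and Psmd11 had 0.40 ± 0.06 (adjusted p = 0.00145). Adrm1 (0.32 ± 0.08, adjusted p = 0.0443) lost its call when any library other than 4OI 2 was left out (adjusted p = 0.0799 to 0.246) and Psmd14 (0.30 ± 0.06, adjusted p = 0.0109) when 4OI 1 or 4OI 3 was left out (adjusted p = 0.0666 to 0.0835). Ulk1, a kinase that starts autophagy, was the single call among 28 genes of lysosome and autophagy (0.29 ± 0.06, adjusted p = 0.0199) and lost it when Control 2, 4OI 2 or 4OI 3 was left out (adjusted p = 0.08 to 0.123). In the paired fit Hspb8 (adjusted p = 0.0654), Psmd11 (0.0778), Adrm1 (0.111), Psmd14 (0.147) and Ulk1 (0.201) did not pass.

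Of the 56 genes raised at least 2-fold, 28 belonged to none of the 36 lists. By size of change the leading ones were AABR07054319.1, Spata48, Ddit4l2, Igfbp5 and AABR07063741.1. The unnamed gene AABR07054319.1 rose from 5.66 to 59.3 CPM (log2 fold change 3.26 ± 0.26, adjusted p = 2.15e-06). Igfbp5, a secreted binding protein of insulin-like growth factors, measured 360.4, 413 and 374 CPM in Control and 1476, 2515 and 1813 CPM in 4OI (log2 fold change 2.30 ± 0.21, adjusted p = 6.63e-06), with replicate 2 the highest of both groups. Ddit4l2 went from 8.09, 13.5 and 6.67 CPM to 58.4, 65.3 and 68.6 CPM (log2 fold change 2.76 ± 0.26, adjusted p = 1.02e-05). Spata48 was at 0.153, 0.147 and 0.227 CPM in Control, near the detection limit, and at 5.15, 1.98 and 8.21 CPM in 4OI (log2 fold change 2.88 ± 0.33, adjusted p = 8.2e-05). AABR07063741.1 was lower still in Control, at 0.115, 0.049 and 0.0908 CPM, a few reads in each library, and stood at 2.87, 1.08 and 2.92 CPM in 4OI.

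Further raised genes outside the lists, chosen after their values were seen, had roles in transport and metabolism. Slc38a3, a glutamine transporter, measured 50.8, 70.2 and 125 CPM in Control and 263, 251 and 312 CPM in 4OI (log2 fold change 1.84 ± 0.24, adjusted p = 0.000322). The aldehyde oxidase Aox1 had a log2 fold change of 1.75 ± 0.16 (adjusted p = 5.44e-06) and Pla2g7, which cleaves oxidized phospholipids, of 1.65 ± 0.17 (adjusted p = 2.34e-05). Xpo1, the nuclear export receptor, varied little within groups, at 159, 171 and 159 CPM in Control and 318, 309 and 315 CPM in 4OI (log2 fold change 0.95 ± 0.08, adjusted p = 2.59e-06).

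Of the 22 lowered genes, Angpt4 measured 3.53, 2.7 and 3.27 CPM in Control and 0.920, 0.819 and 0.959 CPM in 4OI (log2 fold change -1.38 ± 0.26, adjusted p = 0.00948) and was the single gene to pass with each library left out. The metallothionein Mt1, which binds zinc and copper, went from 116, 188 and 98.0 CPM to 39.7, 62.6 and 45.4 CPM (log2 fold change -1.41 ± 0.30, adjusted p = 0.0219), a call lost when Control 2, 4OI 1 or 4OI 3 was left out (adjusted p = 0.114 to 0.137). It was the single call among 7 genes of metallothioneins and zinc, which summed to between 2748 and 3248 CPM in Control and to between 2012 and 2349 CPM in 4OI. S100a6, a calcium-binding protein of astrocytes and mesenchymal cells, measured 15.5, 18.7 and 17.2 CPM in Control and 6.96, 6.77 and 4.09 CPM in 4OI (log2 fold change -1.48 ± 0.36, adjusted p = 0.0481), and its call was lost when any of the 6 libraries was left out (adjusted p = 0.0701 to 0.276). The DNA polymerase Polm went from 36.7, 42.6 and 27 CPM to 16.2, 16.7 and 11.6 CPM (-1.22 ± 0.25, adjusted p = 0.0166) and lost the call when Control 1, Control 2 or 4OI 3 was left out (adjusted p = 0.0642 to 0.121).

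The calls of the remaining larger falls were also lost when single libraries were left out. The purinergic receptor P2rx1 (-1.26 ± 0.28, adjusted p = 0.0305) lost its call when any library other than 4OI 2 was left out (adjusted p = 0.0614 to 0.209), and the collagen receptor Itga11 (-1.23 ± 0.25, adjusted p = 0.0159) lost it when any library other than Control 3 and 4OI 2 was left out (adjusted p = 0.0573 to 0.116). Il18bp, which neutralizes interleukin 18, had -1.07 ± 0.26 (adjusted p = 0.0462) and lost the call when Control 2, 4OI 1 or 4OI 3 was left out (adjusted p = 0.192 to 0.255). RGD1561157 had -1.03 ± 0.21 (adjusted p = 0.0192) and lost it when Control 2, 4OI 1 or 4OI 3 was left out (adjusted p = 0.0971 to 0.116). In the paired fit P2rx1 (adjusted p = 0.0654), Itga11 (0.0701) and Il18bp (0.054) did not pass.

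The largest falls were in 2 interferon-induced synthetases of antiviral oligoadenylates. Oas1a measured 2.24, 56.9 and 9.71 CPM in Control and 0.258, 0.819 and 0.271 CPM in 4OI (log2 fold change -3.68 ± 0.73, adjusted p = 0.0149). Oas1f measured 1.99, 42.1 and 10.8 CPM and 0.442, 1.21 and 0.667 CPM (log2 fold change -3.11 ± 0.72, adjusted p = 0.041). In both genes Control replicate 2 was several times the other Control libraries, and the lowest Control library still lay above the highest of 4OI. Oas1a lost its call when 4OI 1 or 4OI 3 was left out (adjusted p = 0.0788 to 0.0791) and Oas1f when any library other than Control 1 was left out (adjusted p = 0.0588 to 0.187). Neither passed in the paired fit (adjusted p = 0.0667 and 0.0774). Gene copies of the Oas1 family are similar in sequence, so that reads may have been divided between them.

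Of the 41 genes of the interferon response tested, 1 passed (Oas1a), 35 had an unadjusted p under 0.05, and all 41 log2 fold changes were below 0 (median -1.14). The Control libraries differed strongly in this list. Its members summed to 889, 5144 and 1793 CPM in Control replicates 1, 2 and 3, and to 759, 927 and 734 CPM in 4OI. Control replicate 2 was the highest Control library in 40 of the 41 genes and Control replicate 1 the lowest in 39, and Control replicate 1 lay above all 4OI libraries in 19. In 17 genes the 4OI libraries lay entirely below those of Control, against 6.05% of all genes tested. Mx1, an antiviral GTPase chosen after its values were seen, gives an example, with 12.5, 502 and 59.9 CPM in Control, 4.71, 8.24 and 4.71 CPM in 4OI and a log2 fold change of -3.56 ± 0.95 that did not pass (adjusted p = 0.0799).

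The interferon result changed with the libraries and the fit. Without Control replicate 1 the median of the list was -1.72 and 18 genes passed, out of 162 in all. Without Control replicate 2 the median was -0.65 and 1 gene passed, out of 128 in all. Without 4OI replicate 1 or without 4OI replicate 3, 0 genes passed. With the shared block 16 passed, out of 439 genes in all, and in the paired fit 0, out of 200. Replicate 2 was the highest library of the list in both groups. What set Control replicate 2 apart was not tested.

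**Figure D4:**
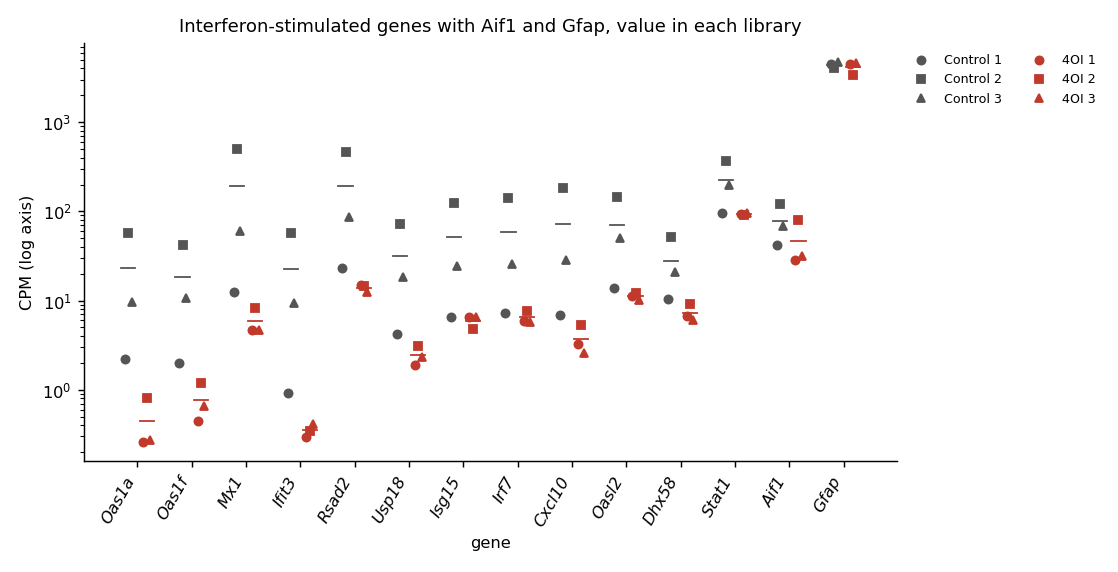
CPM in each of the 6 libraries (log axis) for genes of the interferon response and for Aif1 and Gfap, with Control in grey, 4OI in red, a symbol for each replicate number and a bar at each group mean. Control replicate 2 (squares) is the highest Control library in the interferon genes drawn, as in Mx1 (502 CPM, against 12.5 and 59.9 CPM in the others), while the 4OI libraries lie close together (4.71 to 8.24 CPM).

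Among the inflammatory cytokines, Tnf was at 0 in 5 of the 6 libraries and was not tested, and Il1b showed no difference that could be detected (log2 fold change -0.04 ± 0.63, adjusted p = 0.997). The standard error of Il1b too was estimated over the 21 libraries, Tat groups included. Of 38 cytokines and chemokines, 1 passed, the chemokine Ccl17, whose means of 0.738 and 0.272 CPM lay near the detection limit (log2 fold change -0.68 ± 0.15, adjusted p = 0.0298). It lost the call when any library other than Control 3 and 4OI 2 was left out (adjusted p = 0.105 to 0.154) and in the paired fit (adjusted p = 0.178). With limma, 0 of 24 NF-kB targets, 0 of 24 genes of antigen presentation and 0 of 22 complement genes passed, and 2, 3 and 2 of them had an unadjusted p under 0.05. Their medians were -0.29, -0.49 and -0.66. With the shared block 2 cytokines and chemokines and 2 NF-kB targets passed, out of 439 genes in all. In the paired fit 1 NF-kB target, 3 genes of antigen presentation and 6 complement genes passed, out of 200 genes in all.

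Markers of cell types were compared as well, since the cultures are mixed. Neuronal markers summed to between 4119 and 6289 CPM in Control and to between 4823 and 5294 CPM in 4OI, with 0 of 20 called and a median of 0.02. Of 26 synaptic receptors and scaffolds 0 passed (median -0.02), and in both of these lists 0 genes had an unadjusted p under 0.05. The astrocyte list summed to 16371 to 19635 CPM in Control and 16601 to 19736 CPM in 4OI, and 1 of its 17 genes rose. That gene was Slc1a2, the glial glutamate transporter (0.96 ± 0.22, adjusted p = 0.0384), lost when any library other than 4OI 2 was left out (adjusted p = 0.0766 to 0.210) and in the paired fit (adjusted p = 0.0513). Gfap measured 4528, 3401 and 4625 CPM in 4OI (log2 fold change -0.09 ± 0.24, adjusted p = 0.987) and Map2 662, 526 and 689 CPM (0.11 ± 0.26, adjusted p = 0.980), and both overlapped the Control libraries given above. Egr1, an immediate early gene, was the single call among 25 activity-regulated genes (0.99 ± 0.19, adjusted p = 0.0102) and lost it when Control 1 or 4OI 3 was left out (adjusted p = 0.052 to 0.0764).

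Markers of microglia, macrophages and mesenchymal cells had medians below 0, with 0 calls. The homeostatic microglia list summed to 777 to 1302 CPM in Control and 663 to 1240.0 CPM in 4OI (median -0.31, 0 of 16 called, 0 with an unadjusted p under 0.05). Aif1 measured 28.7, 80.3 and 31.6 CPM in 4OI (log2 fold change -0.75 ± 0.69, adjusted p = 0.841), with replicate 2 the highest in both groups. Markers of border macrophages summed to 1209 to 1536 CPM in Control and 864 to 1013 CPM in 4OI, which do not overlap, with a median of -0.75. Of these 14 genes 0 passed and 5 had an unadjusted p under 0.05. With the shared block 1 passed, out of 439 genes in all, and 3 in the paired fit, out of 200. Markers of endothelium, mural cells and fibroblasts summed to 1083 to 1673 CPM in Control and 891 to 987 CPM in 4OI (median -0.32, 0 of 16 called, 4 with an unadjusted p under 0.05, 1 called in the paired fit). Cell cycle genes had a median of -0.75 and sums of 423 to 731 CPM in Control and 464 to 510.2 CPM in 4OI, with 0 of 24 called, 3 with an unadjusted p under 0.05 and 1 called with the shared block. Of 20 genes of disease-associated microglia 0 passed with limma (median -0.14, 2 with an unadjusted p under 0.05) and 1 each with the shared block and in the paired fit, and of 13 oligodendrocyte genes 0 passed (median 0.06, 0 with an unadjusted p under 0.05). The lower microglial, macrophage and mesenchymal values stood beside the lower values of interferon, complement and antigen presentation genes, and their part in those differences was not tested.

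The same dose of 4OI was also given to cultures that received Tat (6 ng/mL, 48 h; Tat-4OI against Tat) and to cultures that received Tat and cocaine (25 µM for the last 24 h; Tat-Cocaine-4OI against Tat-Cocaine). These pairs of groups share no library with 4OI and Control. With Tat 1266 genes passed (8.11% of those tested, 3.22% higher and 4.89% lower), and with Tat and cocaine 559 (3.58%, 2.27% higher and 1.31% lower). Of the 199 genes raised by 4OI alone, 194 had a fold change of the same sign with Tat and 124 passed there, while 197 had the same sign and 121 passed with Tat and cocaine. The median log2 fold change of these 199 genes was 0.68 alone, where they had been chosen for it, 0.49 with Tat and 0.55 with Tat and cocaine. Of the 22 lowered genes 19 had the same sign and 9 passed with Tat (median -0.64), and 17 had the same sign and 7 passed with Tat and cocaine (median -0.29). Angpt4 did not pass on either background, with a log2 fold change of -0.31 with Tat (adjusted p = 0.457, limma) and 0.27 with Tat and cocaine (adjusted p = 0.641). Its mean was 0.898 CPM in Tat without 4OI, beside 0.900 CPM in 4OI alone. Of the other larger falls, P2rx1 passed with Tat (-1.69, adjusted p = 0.00186, limma) and with Tat and cocaine (-2.30, adjusted p = 0.000158). Mt1, Polm and Il18bp passed on both backgrounds as well. Oas1a and RGD1561157 passed with Tat but not with Tat and cocaine, and Oas1f, S100a6 and Itga11 passed on neither.

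Single genes of the Nrf2 system were raised on each background, but not every gene raised by 4OI alone was. Txn1 had a log2 fold change of 0.14 with Tat (adjusted p = 0.489, limma) and 0.46 with Tat and cocaine (adjusted p = 0.0541). The log2 fold change of Slc7a11 was 2.67 with Tat (adjusted p = 0.00053) and 2.50 with Tat and cocaine (adjusted p = 0.000953). That of Gclm was 1.97 (adjusted p = 8.88e-05) and 1.82 (adjusted p = 0.000193). Gclc had 0.88 (adjusted p = 0.000167) and 0.73 (adjusted p = 0.00101), larger than its 0.54 with 4OI alone. These differences from the effect alone did not pass (adjusted p = 0.563 and 0.958). Nqo1 had 1.86 and 1.88, and Hmox1 2.45 and 2.36. The difference between the effect with Tat and the effect alone was -1.18 ± 0.53 for Slc7a11 (adjusted p = 0.560), -0.97 ± 0.32 for Gclm (adjusted p = 0.384) and -0.34 ± 0.41 for Hmox1 (adjusted p = 0.797), none of which passed. Cebpb, which rose with 4OI alone, had a log2 fold change of -0.66 with Tat (adjusted p = 0.0773), and the difference of -1.69 ± 0.32 missed the threshold (adjusted p = 0.0782). In the 39 libraries of the series without 4OI, Slc7a11 lay between 31.4 and 118 CPM (median 75.7), and in the 9 with 4OI between 331 and 1419 CPM (median 429), with no overlap. Gclm lay between 26.5 and 43.2 CPM (median 31.8) without and between 92.1 and 424 CPM (median 133) with 4OI, and Hmox1 between 115 and 499.7 CPM (median 237) without and between 793 and 1806 CPM (median 1078) with it.

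The contrast of the 4OI effect with and without other agents passed in 5 genes with Tat (0.032%) and in 2 with Tat and cocaine (0.0128%), out of 1362 and 1068 genes with an unadjusted p under 0.05. With voom weights 0 passed in either contrast, and in a fit to the groups compared alone 11 passed with Tat and 0 with Tat and cocaine. None of the 221 genes changed by 4OI alone was among them. The genes were the class II histocompatibility genes RT1-Da and RT1-Db1, Retn, Tectb and LOC691143, whose means were higher in Tat than in Control, 4OI or Tat-4OI. Apart from LOC691143 they were at or near 0 in Control, where no fall could be measured, so the contrast does not show for them that the effect of 4OI differed. RT1-Da, for example, had a mean of 0.299 CPM in Control, 0.448 CPM in 4OI, 22.6 CPM in Tat and 2.67 CPM in Tat-4OI.

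**Figure D5:**
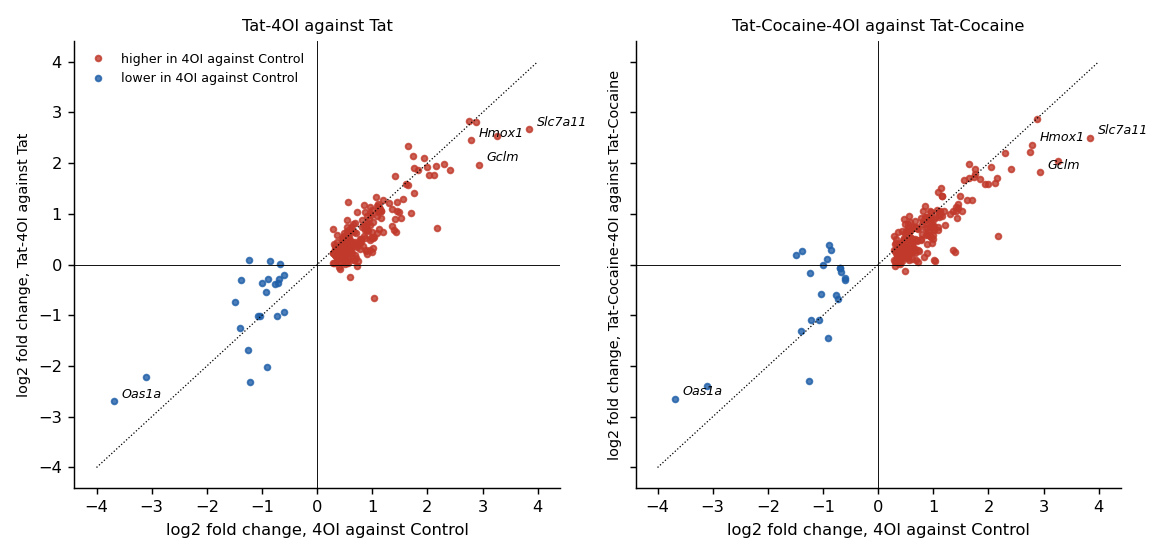
Log2 fold change of 4OI with Tat and with Tat and cocaine (vertical axes) against that of 4OI alone (horizontal axis) for the 221 genes called in 4OI alone, with a dotted line where both are equal. Of the 199 raised genes 194 lie above 0 with Tat and 197 with Tat and cocaine, and Slc7a11 is the highest alone (3.85) and lower with Tat (2.67).

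The cultures given another compound alone served as treated comparators. They were 3 libraries each of Amlexanox (25 µM), Tazemetostat (3 µM) and Senicapoc (1 µM), compounds that differ from 4OI in structure and dose. Against their joint mean, in a fit to all 48 libraries, 1099 of 15890 genes passed (6.92%), 861 higher (5.42%) and 238 lower in 4OI (1.5%). Of the 199 genes raised against Control, 185 were also higher than in these 9 libraries and 0 were lower, and of the 22 lowered genes 13 were also lower and 0 were higher. The 4OI libraries are the same in both comparisons, so the second is not independent of the first. Slc7a11 lay between 64.9 and 118 CPM (median 87.2) in the 9 libraries, which gave a log2 fold change of 3.33 ± 0.25 for 4OI (adjusted p = 3.26e-12). Nqo1 lay between 61.2 and 113 CPM (median 86.1) and gave 2.67 ± 0.15 (adjusted p = 7.71e-16).

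Some of the gene lists were also examined against these compounds. In cholesterol synthesis 15 of 26 genes were higher in 4OI and in lipid efflux and fatty acids 13 of 26, beside 5.42% of all genes tested. In the interferon response 13 of 41 were lower in 4OI, with a median of -0.66, beside 1.5% of all genes tested. Markers of border macrophages had 4 of 14 lower, with a median of -0.71. The interferon genes summed to between 876 and 2703 CPM in the 9 libraries, a range that the 4OI libraries (734 to 927 CPM) overlapped at its lower end.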

How the data were processed

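RNA-seq values of 48 libraries (16 groups of 3, assigned from the labels) were at hand, and 0 libraries were left out. The authors trimmed reads with Trim Galore 0.4.5, aligned them with STAR 2.7.2, sorted them with SAMtools 1.5 and counted reads per gene with featureCounts (Subread 1.5.3), with tool names and versions as in the submitters' processing notes. The library kit preserved strand. The signal the authors deposited is CPM after TMM scaling, and the 6 libraries summed to between 930399 and 1036960 CPM. The study's methods name an older rat build than the processing notes, so no gene positions are given from the files. The deposited log2 fold changes, p-values and false discovery rates of the authors' own comparisons were not used.

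In the 6 libraries 85.1 to 86.6% of values were whole reads within 0.02 read, so count models were not run. Values were tested as log2(CPM + 0.5) with limma 3.58.1 in R 4.3.3 (eBayes with a trend, Benjamini-Hochberg adjustment over all genes tested), on genes that reached 0.5 CPM in 3 or more libraries. The fit held the 21 libraries of 7 groups (Control, Cocaine, Tat, Tat-Cocaine, 4OI, Tat-4OI and Tat-Cocaine-4OI), without covariates. Differences of effects were interaction contrasts of that fit, and the other compounds were compared in a fit to all 48 libraries. The script was tested on simulated data. For single genes, the smallest p of an exact permutation test of 3 libraries against 3 is 0.1. Replicates of a group correlated at 0.992 to 0.999 and differed by more than counting error (chi-square per degree of freedom 7.42 to 67.9), so none was a repeated deposit.

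Replicate numbers come from the labels. The deviations of same-numbered 4OI and Control libraries from their group means correlated at 0.28, 0.47 and 0.34. Those of differently numbered libraries correlated at -0.37 to 0.01. The paired fit takes the numbers to pair these libraries, an assumption that the labels do not state and that 3 libraries a group cannot settle. Same-numbered libraries of Tat-4OI and Tat correlated at -0.18, 0.59 and 0.15, and those of Tat-Cocaine-4OI and Tat-Cocaine at 0.58, -0.20 and -0.16.

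Named genes were the 10 largest rises and 10 largest falls with non-overlapping libraries and at least 1 CPM in the higher group, up to 6 called members of each list (all of them in the 8 Nrf2 lists), and a set of genes of the pathway and of cell types, of which some are not reported here. The members, gene lists and tests were chosen with earlier results of these data known. Promoter windows were matched by symbol to RefSeq (GRCr8), the first window being used where a symbol had several. Alternatives were other pseudocounts, filters, scalings, fits, weights, the replicate block and leaving out each library.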

Additional observations from a re-analysis of the deposited data

Results flagged for a closer look

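In 5 genes the interaction contrast of the limma fit, the effect of 4OI with Tat minus that without, passed the threshold. With voom weights 0 genes passed. The class II histocompatibility genes RT1-Da and RT1-Db1 had differences (effect with Tat minus effect alone, on the log2(CPM + 0.5) scale) of -3.06 ± 0.47 (SE, adjusted p = 0.0235) and -3.29 ± 0.51 (adjusted p = 0.0235). RT1-Db1 had means of 0.500 CPM in Control, 0.475 CPM in 4OI, 20.5 CPM in Tat and 1.52 CPM in Tat-4OI, so both genes were near the detection limit where 4OI was given alone and a fall could not be measured there. Retn, which encodes the secreted protein resistin, differed by -3.38 ± 0.37 (adjusted p = 0.00121). It was at 0 CPM in all libraries of Control and 4OI and had means of 7.21 CPM in Tat and 0.247 CPM in Tat-4OI, so its effect without Tat is 0 by construction and the contrast does not show that the effect of 4OI differed. Tectb differed by -1.69 ± 0.28 (adjusted p = 0.0379), with means of 0.220 CPM in Control and 0.291 CPM in 4OI, again near the detection limit. LOC691143 differed by -2.17 ± 0.29 (adjusted p = 0.00772) and was the single one of the 5 well above the detection limit without Tat, with means of 12.5 CPM in Control, 14.1 CPM in 4OI, 81.0 CPM in Tat and 19.9 CPM in Tat-4OI.

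With Tat and cocaine the contrast passed in 2 of the same genes, LOC691143 (-2.26 ± 0.29, adjusted p = 0.00459) and Retn (-3.05 ± 0.37, adjusted p = 0.00459). The 4OI and Control libraries are the same in both contrasts, so the second is not independent of the first.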

How the results depend on the processing

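None of the 221 genes called in 4OI against Control changed sign with any library left out or in the paired fit. For the interaction contrasts and the other compounds only counts were compared. With Tat and cocaine, 0 higher and 2 lower as reported became 2 higher and 3 lower without a trend. The 221 genes called in 4OI against Control became 101 in a fit to the groups compared alone, 501 in a fit to all 48 libraries and 439 with a replicate block over 21 libraries, and they ranged from 95 to 211 with 1 library left out. Other pseudocounts, filters, scalings, weights and a fit without a trend gave 177 to 232. The median of all genes shifted by -0.03 with median ratio rescaling. A block over the 6 libraries of 4OI and Control alone gave 200 genes, in a fit with few residual degrees of freedom. Among them were 96 of the 199 raised and 8 of the 22 lowered ones.

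The 5 genes in which the contrast with Tat passed became 3 with a pseudocount of 0.1 CPM and 11 in a fit to the groups compared alone. They became 79 in a fit to all 48 libraries, 0 with voom weights and 27 with the replicate block. With 1 library left out they ranged from 2 to 7. The 2 genes with Tat and cocaine became 4 with a pseudocount of 1 CPM, 0 in a fit to the groups compared alone, 18 in a fit to all 48 libraries, 5 without a trend, 0 with voom weights and 7 with the block, and ranged from 2 to 11 with 1 library left out. A pairing by number was not clear for the Tat and Tat-Cocaine groups, so their block values say nothing of a weaker effect. The 1099 genes that differed from the other compounds became 590 in a fit to those groups alone and 472 in a fit to groups given 1 agent or none, and ranged from 522 (without 4OI replicate 3) to 1501 with 1 library left out. The share of raised genes with the motif in their window (16.4%) became 3.29% with the longer core of the element and 7.24% with the AP-1 letters, since each is another set of letters. The 32 genes called in the 8 Nrf2 lists ranged from 23 to 37 over all alternatives. Causes of these changes were not tested otherwise.

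Depth limits genes under about 0.5 CPM, which rest on some 10.2 to 13.6 reads a library, and 3 libraries a group limit small changes in any gene.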
